A study of Homo sapiens with 3 samples.

Results

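The major histocompatibility complex on chromosome 6 held 78 of the 17089 peaks of wild-type Idax in HEK293T chromatin (0.456%) and 0 of the 38 peaks of its DNA-binding mutant. Members were the peaks whose middle lay between 29600000 and 33100000 of build hg19. They were split by position into class I (29600000 to 31480000), class III (31480001 to 32360000) and class II (32360001 to 33100000). A stretch of 11001 bp in class I was not analysed here, and its length was taken off class I. Class I then held 43 peaks, class III 29 and class II 6.

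The study mapped binding of Idax by chromatin immunoprecipitation and sequencing (ChIP-seq) in stable lines of HEK293T, derived from human embryonic kidney and bearing the large T antigen of SV40. A first line had been transfected with wild-type Myc-Idax, a second with Myc-IdaxDBM, a DNA-binding mutant, and another with empty vector, and an anti-c-Myc agarose gel was used on all 3. Each tagged protein was compared with the empty-vector line, which gave 1 peak list per construct. Although the design names 2 replicates per condition, 1 list each leaves no replicate error, so no test was made, and read depth is unknown. The tagged proteins were expressed from transfected constructs, each in its own line, and protein amounts are not in the lists.

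Idax, also called CXXC4, carries a zinc finger of the CXXC type, which recognises CpG without methylation in DNA. Such DNA is found mainly at CpG islands, which lie at many promoters of broadly used genes. The complex is a useful place to look at because gene types change sharply along it. Class I holds classical genes such as HLA-B and HLA-C, whose products show peptides from inside the cell to T cells on nearly all cell types, among many unrelated genes and pseudogenes. Class III is packed with short genes, among them those of complement, of the tumour necrosis factor family, of heat shock proteins and of general RNA and chromatin factors. Class II holds the HLA-DR, HLA-DQ and HLA-DP chains, which show peptides taken up from outside and are made mainly by professional antigen-presenting cells, and also the peptide transporter genes TAP1 and TAP2 and the bromodomain gene BRD2.

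How far promoters of the complex differ in CpG is visible in the sequence. The 250 bases before the gene start are given here for 1 gene of each class, from RefSeq on GRCh38.p14, chromosome 6, minus strand, 5′ to 3′, with each CpG in capitals. They are single examples and do not show the typical promoter of their class, and they were not matched to peaks, because the lists are on another build.

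HLA-B: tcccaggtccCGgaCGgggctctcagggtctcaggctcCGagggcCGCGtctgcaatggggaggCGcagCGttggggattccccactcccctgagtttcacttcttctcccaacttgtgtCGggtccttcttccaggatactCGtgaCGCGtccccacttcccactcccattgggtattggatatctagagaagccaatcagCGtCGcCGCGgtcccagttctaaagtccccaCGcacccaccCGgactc

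EHMT2: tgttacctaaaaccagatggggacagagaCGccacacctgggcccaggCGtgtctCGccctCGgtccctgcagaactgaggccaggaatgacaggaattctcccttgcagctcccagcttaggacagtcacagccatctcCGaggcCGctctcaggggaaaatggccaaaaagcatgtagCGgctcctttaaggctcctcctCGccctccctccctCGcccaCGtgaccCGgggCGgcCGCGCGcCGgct

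HLA-DRB1: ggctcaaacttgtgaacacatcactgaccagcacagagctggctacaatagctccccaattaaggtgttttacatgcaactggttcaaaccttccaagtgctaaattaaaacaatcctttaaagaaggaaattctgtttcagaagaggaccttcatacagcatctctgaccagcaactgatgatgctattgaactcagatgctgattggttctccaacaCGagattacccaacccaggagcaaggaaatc

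HLA-B, a classical class I gene, has 17 CpG in this stretch. EHMT2, a class III gene for a histone methyltransferase, has 16. HLA-DRB1, a class II gene for a beta chain of HLA-DR, has 1. The observed over expected CpG ratio, which divides the number of CpG by that predicted from the C and G content, was 0.73, 0.65 and 0.09 over these bases. HLA-B lay above the median of class I, EHMT2 above that of class III and HLA-DRB1 below that of class II.

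Class III was the most densely occupied class and class II the least. Class III had 33.0 wild-type peaks per Mb (exact Poisson 95% interval 22.1 to 47.3, 29 peaks in 0.88 Mb). Class I had 23.0 per Mb (16.7 to 31.0, 43 peaks in 1.869 Mb). Class II had 8.11 per Mb (2.98 to 17.6, 6 peaks in 0.74 Mb). The density of class III was 4.06 times that of class II (95% interval of the ratio 1.66 to 12), and that of class I was 2.84 times that of class II (1.20 to 8.16). Class III and class I were not told apart, with a ratio of 1.43 (0.862 to 2.35). These intervals cover counting error only and treat peaks as independent, so with peaks that lie in groups they are too narrow.

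Read against the rest of the list, classes I and III were dense, and class II was not told apart from it. The rest of chromosome 6 had 5.65 peaks per Mb (5.30 to 6.03, 945 peaks) and the whole list 5.70. Relative to the rest of chromosome 6, density was 5.83-fold higher in class III (3.88 to 8.43), 4.07-fold higher in class I (2.93 to 5.52) and 1.43-fold higher in class II (0.525 to 3.13), the last with an interval that includes 1. Windows of the length of class III, laid end to end over the span of the list, held at least 29 peaks in 47 of 3393 cases (1.39%). Windows of the length of class I held at least 43 peaks in 44 of 1583 cases (2.78%). For class II, 3187 of 4037 windows of its length (78.9%) held 6 peaks or fewer, and 1076 (26.7%) held 6 or more. The median window held 3, so the count of class II lay above the median but was not rare. Windows over unassembled sequence are among these.

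**Figure D1:**
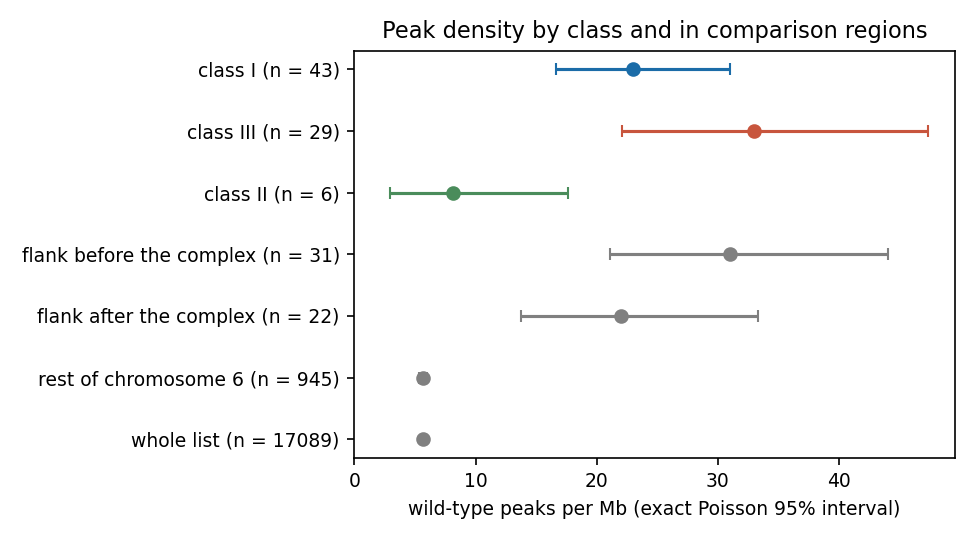
Wild-type peaks per Mb (horizontal axis) in the 3 classes, in the 1 Mb on either side of the complex, on the rest of chromosome 6 and in the whole list. Points are densities and bars exact Poisson 95% intervals, n is the number of peaks, and class II, at 8.11 per Mb, lies below class I, class III and both flanks.

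The high density did not end at the limits of the complex. The 1 Mb before it held 31 peaks and the 1 Mb after it 22. Class I differed from the stretch before it by a ratio of 0.742 (0.457 to 1.22), and class III from the stretch after the complex by 1.5 (0.831 to 2.74), both with intervals that include 1. Class II was sparser than the 1 Mb that follows it, at a ratio of 0.369 (0.122 to 0.937). Class II was thus a dip between denser neighbours on both sides, at a level not told apart from that of the chromosome at large.

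The dip in class II came from a long stretch without any peak. Between 32213223 and 32805740, a distance of 593 kb, the wild-type list had no entry. Of this stretch, 146778 bp lay at the end of class III and 445740 bp at the start of class II, where it took up 60.2% of the class. Of the 17065 gaps between neighbouring peaks of the list, 981 (5.75%) were at least this long, and the median gap was 52569 bp. Such gaps were thus a small part of all gaps by number, but made up 51.7% of all sequence between peaks. Gaps over unassembled sequence were not left out of these figures. The gap in the complex stood beside one of the denser parts of the list. The last peak before it was weak, at 32212630 to 32213222 (593 bp, score 55.79).

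All 6 class II peaks were placed beyond that gap, and 5 of them within 135 kb. The score used here is the authors' deposited value for each peak, higher for stronger evidence of enrichment, with a scale not stated in the lists. The strongest lay at 32939002 to 32941163 and scored 702.58 over 2162 bp. Only 78 bp before it ended the widest peak of the whole complex, at 32935424 to 32938923, which scored 589.40 over 3500 bp. The pair would count as 1 peak if peaks less than 1 kb apart were merged.

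The next strongest class II peak stood alone at 32861906 to 32862932 and scored 695.11 across 1027 bp, high for its width. The remaining 3 were lower. The peak at 32821455 to 32822346 scored 317.26 over 892 bp. The peak at 32805741 to 32806931, the first after the gap, scored 164.90 over 1191 bp. The last, at 33091374 to 33091973, was 150210 bp away from its neighbour, 600 bp wide and among the weakest of the complex with a score of 62.79. Of the 6 peaks, 3 were thus in the top 25% of the list by score. They followed one another along the chromosome, with 72491 bp between the lone peak and the close pair.

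**Figure D2:**
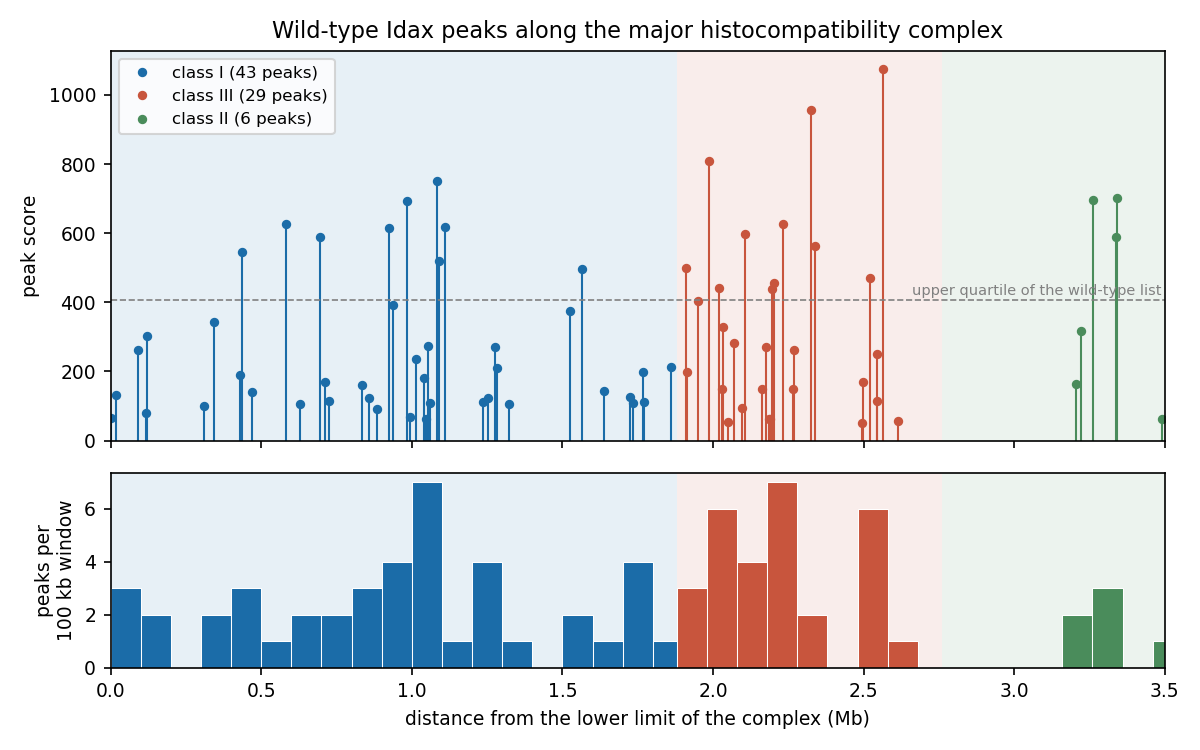
Score of each of the 78 wild-type peaks (top) and number of peaks per 100 kb window (bottom; the last window of each class is shorter) against the distance in Mb from the lower limit of the complex, with the classes shaded. The stretch without peaks begins near the end of class III and covers the first 445740 bp of class II, and the dashed line is the upper quartile of score in the whole list (407.78).

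Class III carried the strongest peaks of the complex. Its strongest, at 32162956 to 32164599, scored 1073.93 over 1644 bp and ranked number 320 in the list. The next, at 31926179 to 31927486, scored 956.02 over 1308 bp and ranked number 491. The peak at 31587504 to 31589239 scored 808.24 over 1736 bp. No class I or class II peak reached these 3 scores. The following 3 were at 31830207 to 31831778 (score 627.03), 31706849 to 31708372 (score 596.57) and 31939113 to 31940733 (score 563.43). The peaks at 31508675 to 31510543 (score 498.06) and 32120613 to 32122796 (score 469.79) completed the 8 strongest, and the latter, with 2184 bp, was the widest of the class. Strong peaks were therefore found from one end of the occupied part of class III to the other.

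The other 21 class III peaks scored between 51.82 and 454.65 (median 170.53) and were 493 to 2062 bp wide. The median distance between neighbouring class III peaks was 15292 bp, and 11 of the 28 distances were under 10 kb. The densest run of 3 windows of 100 kb, from 31580001 to 31880000, held 17 of the 29 peaks (58.6%). A gap of 154529 bp, from 31940734 to 32095262, divided the class, and its last 146778 bp had no peak. Class III therefore consisted of a long dense block, a gap, a short dense block that held its strongest peak, and an empty end.

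Class I held the most peaks, spread over nearly its whole length. The strongest, at 30684545 to 30685829, scored 749.71 over 1285 bp and ranked number 1092 in the list. It was followed by the peaks at 30584593 to 30586201 (score 694.52) and 30180757 to 30182416 (score 627.77). The peak at 30710055 to 30712758 scored 618.08 and, with 2704 bp, was the widest of the class. The other 4 of the 8 strongest lay at 30523304 to 30525749 (score 615.35), 30293589 to 30295415 (score 588.97), 30034127 to 30035424 (score 546.98) and 30687448 to 30689782 (score 519.48). These 8 peaks all lay between 30034127 and 30712758, away from both ends of the class.

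The other 35 class I peaks scored between 61.24 and 496.14 (median 140.01) and were 564 to 1691 bp wide. The median distance between neighbours was 24429 bp over 41 distances, and 10 were under 10 kb. The densest run of 3 windows, from 30400000 to 30699999, held 14 peaks (32.6% of the class), and the longest gap ran over 201726 bp from 30923984 to 31125709. Of 19 windows in class I, 2 had no peak, against 2 of 9 in class III and 5 of 8 in class II.

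The members next to the outer limits of the complex were weak. At the lower limit of the complex the first member, at 29600679 to 29601369, scored 66.52, and its middle lay 1024 bp inside. The last peak outside, at 29520801 to 29521882, scored 143.61. At the upper limit the last member is the class II peak of score 62.79, and the first peak outside, at 33129166 to 33130050, scored 217.43. The limit between class I and class III fell between a peak at 31461353 to 31462954 (score 212.81) and the class III peak of score 498.06 at 31508675. No peak crossed a limit, so counting peaks by any overlap gave the same 43, 29 and 6.

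Class II, the sparsest class, had the highest median score, although from 6 peaks only. Class III was above class I in both density and median score. The median score was 453 in class II (quartiles 203 and 669, 6 peaks), 271 in class III (148 and 470, 29 peaks) and 182 in class I (111 and 358, 43 peaks), against 223 in the whole list. Exact 95% intervals of the median were wide and overlapped, at 62.8 to 703 in class II, 149 to 455 in class III and 124 to 269 in class I. With peaks less than 1 kb apart merged, the medians were 317 in class II, 277 in class III and 182 in class I. In the list, 25% of peaks are in the highest score class, 407.78 or more, by definition. The share was 37.9% in class III (11 of 29, Clopper-Pearson 95% interval 20.7 to 57.7), 20.9% in class I (9 of 43, 10 to 36.0) and 50% in class II (3 of 6, 11.8 to 88.2), and each interval includes the background. The lowest 25% of scores included 6 of 29 class III, 10 of 43 class I and 1 of 6 class II peaks, or 20.7%, 23.3% and 16.7%, also near 25%.

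Widths differed less than scores. The median width was 1308 bp in class III (quartiles 885 and 1572), 1092 bp in class I (847 and 1382) and 1109 bp in class II (926 and 1919), against 1116 bp in the whole list. The exact intervals of the median, 934 to 1556 bp in class III and 916 to 1238 bp in class I, overlapped. The widest peaks, 1503 bp or more, which make up 25% of the list, numbered 11 of 29 class III peaks (37.9%, 20.7 to 57.7), 10 of 43 class I peaks (23.3%, 11.8 to 38.6) and 2 of 6 class II peaks (33.3%, 4.33 to 77.7).

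Score rose with width, so the measures are not separate evidence. Across peaks, which are not independent, Spearman's rho was 0.86 in class I (43 peaks), 0.74 in class III (29 peaks) and 0.77 in the whole list. It was 0.6 in class II, over 6 peaks only. Among peaks of middling width, between the list's width quartiles of 826 and 1503 bp, the median score was 198 in class III (13 peaks), 182 in class I (23 peaks) and 317 in class II (3 peaks), against 233 in the list. The difference in median score between class III and class I was thus smaller among peaks of like width. Class III was above the list over all widths (271 against 223) but below it among peaks of middling width. Class I was below the list in both cases. Number and width together gave a covered share of 4.23% of class III, 2.72% of class I and 1.27% of class II, against 0.758% of the rest of chromosome 6.

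**Figure D3:**
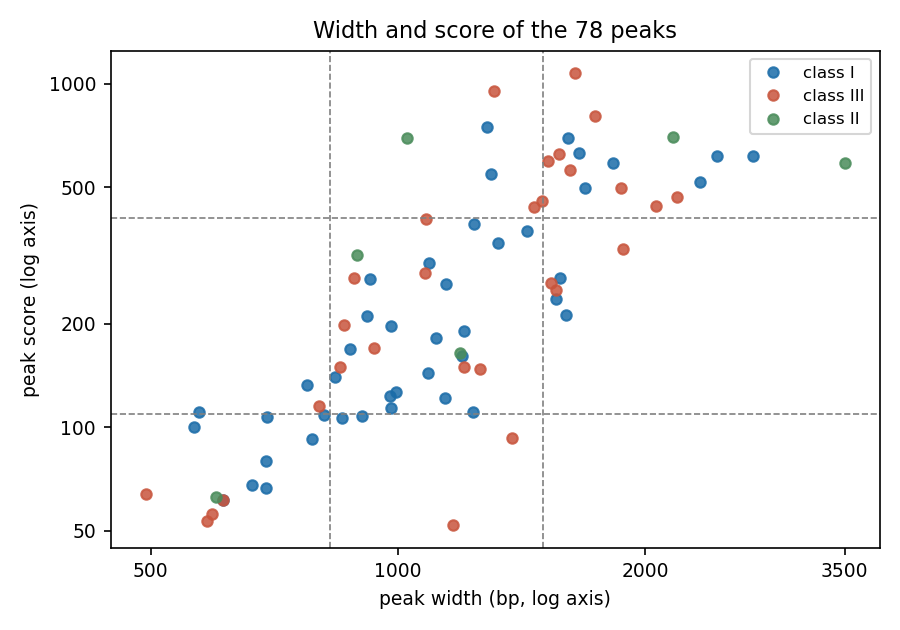
Width in bp (horizontal, log axis) and score (vertical, log axis) of the 78 wild-type peaks, coloured by class, with dashed lines at the lower and upper quartiles of the whole list (826 and 1503 bp; scores 109.34 and 407.78). Wider peaks tended to score higher, with only 6 peaks in class II, and the 3 highest points are class III peaks.

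Set against genes, class I had the most peaks per gene of the 3 classes. Genes were counted by their order in RefSeq on GRCh38.p14 between border genes, GABBR1 to MICB for class I, MCCD1 to TSBP1 for class III and BTNL2 to HLA-DPB1 for class II. No position from that table was set beside a peak, and the borders only approximate the limits on hg19. Class III had 60 protein-coding genes (68.2 per Mb), class I 51 (27.3 per Mb) and class II 19 (25.7 per Mb). There were 0.843 peaks per coding gene in class I (0.610 to 1.14), 0.483 in class III (0.324 to 0.694) and 0.316 in class II (0.116 to 0.687), against 1.03 on the rest of chromosome 6 (0.965 to 1.10). The whole list had 0.853 per coding gene over all protein-coding genes, close to the value of class I. The ratio of class I to class III was 1.74 per coding gene, with an interval (1.06 to 2.9) that lies above 1. With all genes except pseudogenes it was 1.5 (0.916 to 2.49), which includes 1, so this difference depends on the genes counted. Class III had fewer peaks per gene than the rest of the chromosome, as did class II, while the interval of class I included 1.03. A peak counted in a class was not assigned to a gene of it.

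The share of CpG-rich promoters in classes III and II was below that elsewhere on the chromosome. A window of 300 bases, 250 before and 50 after the most upstream start in the RefSeq table, was matched by gene for 46 of 51 class I, 54 of 60 class III and 18 of 19 class II coding genes. It was termed CpG-rich when the observed over expected ratio was at least 0.6 and G+C at least 50%. On the rest of chromosome 6, 498 of 810 promoters (61.5%) were CpG-rich. The share was 26 of 46 in class I (56.5%, 41.1 to 71.1), 19 of 54 in class III (35.2%, 22.7 to 49.4) and 5 of 18 in class II (27.8%, 9.69 to 53.5). The intervals of class III and class II lie below 61.5%, and that of class I includes it. The median ratio was 0.74 in class I, 0.51 in class III and 0.25 in class II, against 0.77 on the rest of the chromosome.

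The classes were closer to each other when peaks were set against CpG-rich promoters alone, a measure chosen after seeing the data. There were 1.65 peaks per CpG-rich promoter in class I, 1.53 in class III and 1.20 in class II, against 1.90 on the rest of chromosome 6. The class II value rests on 6 peaks and 5 promoters. When the start with the highest CpG ratio was used for each gene, the values were 1.48 in class I, 1.32 in class III and 1 in class II. The number of CpG-rich promoters per Mb had the same order as the peaks, 21.6 in class III, 13.9 in class I and 6.76 in class II. These are counts per class over 3 classes and carry no test, and whether these promoters held the peaks was not tested. DNA methylation in these cells was not analysed here.

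**Figure D4:**
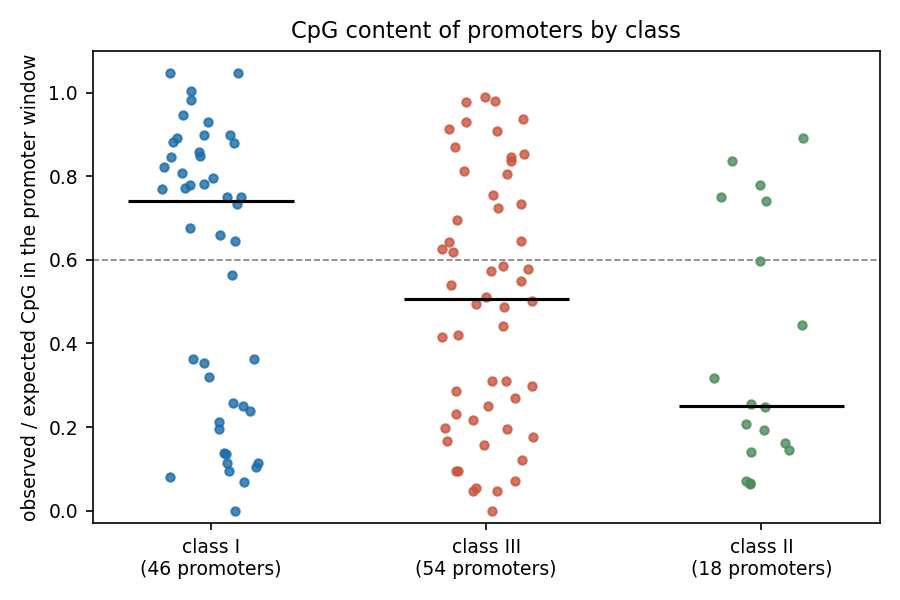
Observed over expected CpG ratio of the promoter window (vertical axis) of each protein-coding gene with a window, by class, with the median as a black bar and the ratio of 0.6 as a dashed line; sideways spread within a class has no meaning. The medians are 0.74 in class I, 0.51 in class III and 0.25 in class II, and most class II promoters lie below the dashed line.

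Gene groups within a class differed in CpG content. Among classical class I genes, HLA-B (ratio 0.78, 22 CpG) and HLA-C (0.66, 19 CpG) were CpG-rich. MICA (0.68) and MICB (0.77), which encode stress-induced ligands of natural killer cells, and HLA-F (0.65), a nonclassical class I gene, were CpG-rich too. HLA-G, a nonclassical gene known from the placenta, had 1 CpG and a ratio of 0.10, in a window of 35.7% G+C. Each value is for the most upstream start only, and another start of the same gene can differ. With the start of the highest ratio, 29 class I promoters instead of 26 were CpG-rich. Class I also held CpG-rich promoters of broadly used genes such as TUBB (0.90), which encodes a beta-tubulin, and ABCF1 (1.05), a translation factor. Promoters that were not CpG-rich included MUC22 (0.36), which encodes a mucin, and CDSN (0.35), which encodes a protein of the outer skin. DDR1 (0.32), NRM (0.21) and PPP1R18 (0.56) were not CpG-rich either. All these are picked examples from outside the gene lists, and a link between breadth of use and CpG content in class I was not tested.

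In class II, CpG-poor and CpG-rich promoters were both found. Of 12 matched genes for class II chains, 1 was CpG-rich, HLA-DPA1 with a ratio of 0.84, and the median was 0.18. HLA-DQA1 and HLA-DRB1 had 1 CpG each in 300 bases. The list of chains includes HLA-DMA (0.15), HLA-DMB (0.25), HLA-DOA (0.32) and HLA-DOB (0.19), whose products act in peptide loading. Of the 4 genes of antigen processing, TAP1 (0.74) and TAP2 (0.89), which form the peptide transporter, and PSMB9 (0.75), a subunit of the immunoproteasome, were CpG-rich, and PSMB8, another subunit, had a ratio of 0.60 that fell just under the limit. BRD2, a reader of acetylated histones, had 30 CpG and a ratio of 0.78.

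Class III mixed both kinds. Of 11 matched genes from a list of 12 broadly expressed ones, 8 were CpG-rich, against 35.2% of the class as a whole. Among them were NELFE (0.99), a subunit of a factor that pauses transcription, SKIC2 (0.98), an RNA helicase of the exosome pathway, and BAG6 (0.93), a chaperone. The other matched genes of the list, ATF6B (0.54), WHR1 (0.51) and RNF5 (0.49), lay below the limit. The list was a chosen one, so the contrast depends on which genes it names. Of the tumour necrosis factor family, 0 of 3 were CpG-rich, with ratios of 0.07 for LTB, 0.18 for LTA and 0.44 for TNF. Among complement genes, C2 had 40 CpG and a ratio of 0.94 and CFB a ratio of 0.31, while C4A and C4B were not matched. HSPA1B (0.62) was CpG-rich, whereas its near-identical copy HSPA1A (0.55) and HSPA1L (0.50), all genes of heat shock proteins, lay below the limit.

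The mutant list had 0 peaks in each class, on both flanks and on all of chromosome 6. If its 38 peaks were shared out like the wild-type peaks, 0.173 would fall in the complex, so the absence of mutant peaks there says nothing about the complex itself.

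All 17089 wild-type peaks were on the standard chromosomes, and 0 were on the alternative haplotype sequences of the complex that hg19 is also distributed with. Whether those sequences were part of the reference for alignment, and how reads from close relatives among the HLA genes were placed, was not stated in the labels or lists, and their part in the sparse stretch of class II was not tested.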

How the data were processed

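ChIP-seq peak lists of Myc-Idax and of Myc-IdaxDBM, each over empty vector, were used. Bowtie 0.12.7, MACS 1.4.1 and build hg19 are named in the submitters' processing notes. How replicates were combined and reads filtered is not stated. Scores are as deposited by the authors, on a scale not stated that grows with depth, and were used only within a list. Starts were converted to 1-based positions. Peaks were assigned to classes by their middle. Densities have exact Poisson 95% intervals, shares Clopper-Pearson intervals, medians exact order-statistic intervals, and ratios intervals from the exact binomial split. All cover counting error only.

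The 1 distance between class I peaks that spans the stretch left out was not measured. Members, class limits, gene lists and border genes were chosen with earlier results of these data known. Named regions were the 8 strongest peaks of class I and of class III, all of class II, the widest of each class, those next to the limits, and the densest and emptiest stretches. The promoters to be shown were of HLA-B, EHMT2 and HLA-DRA. HLA-DRA was not matched, and HLA-DRB1 was taken in its place. STK19 is an older name of WHR1 in the gene table and was matched as such. Of a gene's several starts, the most upstream was used. Counting and intervals were tested on simulated peaks placed independently of one another. The intervals assume such placing, so the simulation checks the calculation and not whether they hold for grouped peaks. Alternatives were a stricter score, merging, other assignment and limits, the densest window left out, and other gene and promoter definitions. Python 3.11.15, numpy 2.4.6, pandas 2.3.3 and SciPy 1.17.1 were used.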

Additional observations from a re-analysis of the deposited data

How the results depend on the processing

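No paired analysis was possible because 1 list stood for each construct and carried no replicate numbers, and no replicate could be left out. Of 75 alternative values, 71 stayed within the 95% interval of the value reported, 0 changed direction and 4 lay outside. Only the density ratios between classes have a direction to change, so for values of a single class that outcome was fixed. Some alternatives, such as counting by any overlap and the mutant counts, only repeated the main value. The number that stayed within is therefore no measure of robustness. The intervals of class II are wide, so staying within them says little. When all genes except pseudogenes were counted, peaks per gene were 0.524 in class I and 0.349 in class III, and the interval of their ratio, unlike that over coding genes, included 1. Counted against genes with a CpG-rich promoter only, a choice made after seeing the data, they were 1.65 in class I, 1.53 in class III and 1.20 in class II. These moves follow from the smaller or larger number of genes. Without the densest 100 kb window of each class, the density ratio of class III to class II was 6.02 and that of class I to class II 4.34, with 4.69 peaks per Mb left in class II. At a score of at least 100 the median score was 204 in class I, 403 in class III and 589 in class II. Leaving out low scores raises a median by construction, so this is no check of the scores. Read depth is unknown and limits what the lists can show.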
